A study of Mus musculus with 30 samples.

Results

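The miR-26 family is described here by its 2 guide strands on the array, mmu-miR-26a and mmu-miR-26b, which were taken by name from the scanner files and from the deposited value table. They are 2 of 1136 miRNAs on the array and 2 of the 306 miRNAs that passed the filter on low signal, and the rule that takes them uses names alone, although the family was picked for description with earlier results of these data known. MicroRNA was measured in heart sections that held both ventricles, on Agilent miRNA arrays hybridised with RNA labelled in 1 colour. The female C57BL/6 mice came from Taconic at 5 to 6 weeks of age, and their age at death was not given. Each Printex 90 mouse received 162 µg of this commercial carbon black nanoparticle by intratracheal instillation, in 40 µl of fluid followed by 150 µl of air. The fluid was 0.9% NaCl water with 10% acellular bronchoalveolar lavage fluid by volume, and vehicle mice received the same fluid with 0 µg of particles. The lavage fluid is thus shared by all groups, and no uninstilled mice were analysed here.

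Signals were analysed from 6 Printex 90 and 4 vehicle mice on day 1, 4 Printex 90 and 6 vehicle mice on day 3, and 5 Printex 90 and 4 vehicle mice on day 28. A further Printex 90 mouse of day 3 (replicate 3) had a value in the authors' table alone, so 29 of 30 samples entered the main model. Each sample was the RNA of 1 mouse. Heart muscle markers (miR-1a, miR-133a, miR-133b, miR-208a-3p and miR-499) were detected on all 29 arrays, 5 of 5. All 4 red cell, 4 leukocyte and 2 endothelial markers were likewise detected on every array. Of 7 epithelial markers (miR-200a, miR-200b, miR-200c, miR-141, miR-429, miR-34b-5p and miR-34c) and 2 brain markers, 0 were detected on any. However, miR-34b-3p, the other strand to miR-34b-5p, was not on that list and passed the filter on low signal (mean log2 5.78). The liver miRNA miR-122 was detected on 26 arrays. The signal therefore came from whole tissue, in which fewer cells of a type and less RNA per cell cannot be told apart.

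A miRNA is a short RNA that guides a silencing complex to messenger RNAs that pair with its seed, the bases near its 5′ end. The miR-26 guides are made from hairpins inside genes of small C-terminal domain phosphatases, and are found in most tissues. Reported targets include Ezh2, a histone methyltransferase, and Gsk3b, a kinase that restrains growth signalling. In the mouse heart, miR-26 has been studied for its part in cardiac hypertrophy and in fibrosis.

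The mature sequences are shown because they state what the probes were made to detect and how close the 2 members are. In each, the capitals mark the seed, bases 2 to 8 counted from the 5′ end.
miR-26a: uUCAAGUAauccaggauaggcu
miR-26b: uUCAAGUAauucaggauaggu
The seeds are identical, so both members read the same seed match in a target. Over the 21 positions they share, 19 were identical, and miR-26b differed from miR-26a by C11U and C21U. miR-26a is 22 bases long and miR-26b 21. In the RefSeq table used (GRCm38.p6), which holds 1679 mature mouse sequences, 0 others carried this seed.

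The same miR-26a strand is encoded at 2 places of the genome and miR-26b at 1, so the array cannot tell the 2 sources of miR-26a apart by its guide strand. Mir26a-1 gives it from chr9:119031811-119031832 within the span of Ctdspl, and Mir26a-2 from chr10:126995543-126995564 within the span of Ctdsp2. Mir26b gives miR-26b from chr1:74394324-74394344 within the span of Ctdsp1. All of them are on the plus strand. The hairpins are printed below, with the guide strand in capitals, since their opposite arms were also on the array.
Mir26a-1: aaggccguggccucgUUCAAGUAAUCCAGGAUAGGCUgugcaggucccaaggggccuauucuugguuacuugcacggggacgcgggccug
Mir26a-2: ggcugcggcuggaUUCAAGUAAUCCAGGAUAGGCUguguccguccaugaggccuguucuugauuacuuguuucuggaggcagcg
Mir26b: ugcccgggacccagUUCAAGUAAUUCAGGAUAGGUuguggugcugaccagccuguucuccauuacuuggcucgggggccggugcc

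Both guide strands were bright in every heart. Each had 2 probes of 20 spots per array, and 1160 of 1160 spots of each member were well above background over the 29 arrays. The opposite arms of the same hairpins were not seen. The arm of Mir26a-1 (miR-26a-1*) had 3 of 1160 spots well above background, that of Mir26a-2 (miR-26a-2*) 2 of 1160, and that of Mir26b (miR-26b*) 1 of 1160, and each was detected on 0 of 29 arrays. The opposite arms are shown with bases 2 to 8 in capitals, to set them beside the guides that were detected.
miR-26a-1*: cCUAUUCUugguuacuugcacg
miR-26a-2*: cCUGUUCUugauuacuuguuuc
miR-26b*: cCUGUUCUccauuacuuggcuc
An undetected arm has no level here, so no change in it between groups could be measured, and the locus that supplied miR-26a was not resolved.

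Across all 29 hearts, miR-26a ran from 11.76 to 12.16 and miR-26b from 11.15 to 11.54 in log2 scaled signal, a 1.31-fold range for each. These values are processed signals after each array was set to a common 75th percentile, taken over the probes that every array detected. The 6 group means of miR-26a lay within 0.16 on the log2 scale and those of miR-26b within 0.14. In both members vehicle mice of day 1 had the lowest mean and vehicle mice of day 28 the highest.

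**Figure D1:**
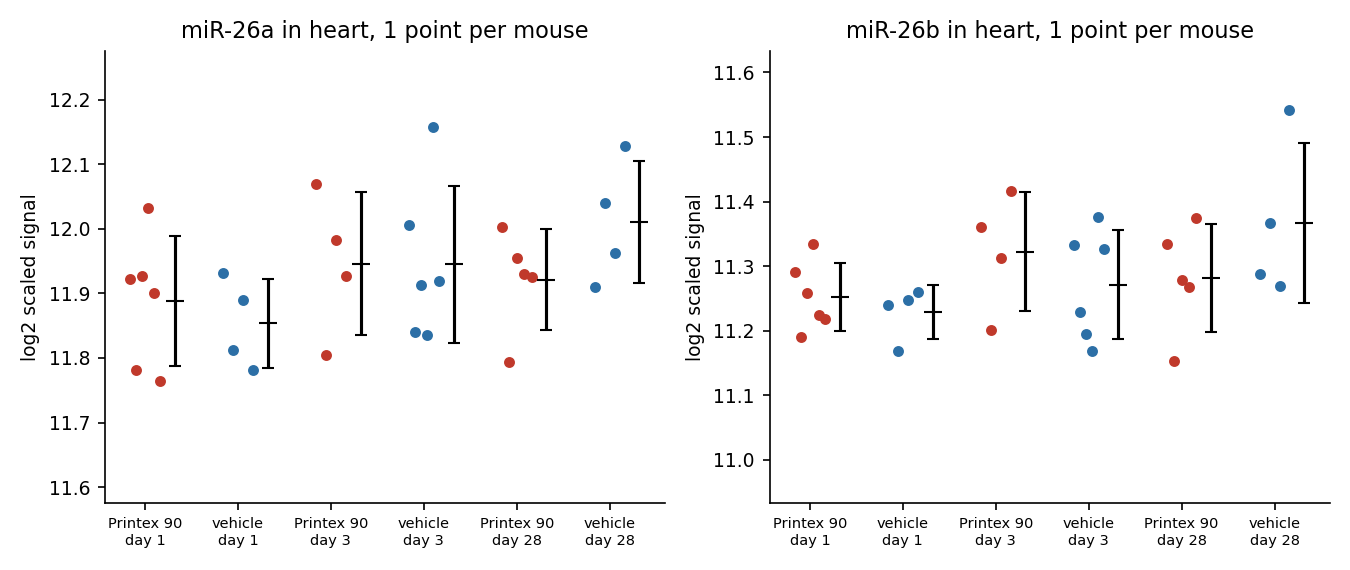
Log2 scaled signal of miR-26a (left) and miR-26b (right) in each heart, with 1 point per mouse, Printex 90 in red and vehicle in blue; bars show the mean and SD of each group. The points of Printex 90 and vehicle mice overlap on every day, and the vehicle mice of day 28 have the highest mean in both panels.

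From the lowest, the means of miR-26a followed the order vehicle day 1, Printex 90 day 1, Printex 90 day 28, vehicle day 3, Printex 90 day 3 and vehicle day 28. For miR-26b the order was vehicle day 1, Printex 90 day 1, vehicle day 3, Printex 90 day 28, Printex 90 day 3 and vehicle day 28. The individual values of every pair of neighbours in either order overlapped. The largest step between neighbours was 0.06 for miR-26a and 0.04 for miR-26b, each smaller than the SD of the groups on its 2 sides.

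The first comparison asked whether instilled Printex 90 changed the family in the heart after 1 day. In Printex 90 mice, miR-26a had a lowest value of 11.76, a median of 11.91 and a highest value of 12.03, against 11.78, 11.81, 11.89 and 11.93 in the 4 vehicle mice. The vehicle values lay inside the range of the Printex 90 values. The means were 11.89 ± 0.10 in Printex 90 mice (SD, n = 6) and 11.85 ± 0.07 in vehicle mice (SD, n = 4). The difference of 0.03 ± 0.07 (log2, SE) did not pass limma's test (adjusted p = 0.917), and its 95% interval ran from -7.55% to 13.5% of the vehicle signal.

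miR-26b on day 1 had a lowest value of 11.19, a median of 11.24 and a highest value of 11.33 in Printex 90 mice, against 11.17, 11.24, 11.25 and 11.26 in vehicle mice. The groups overlapped, with 3 of 6 Printex 90 mice above the vehicle mean. The means were 11.25 ± 0.05 in Printex 90 mice (SD, n = 6) and 11.23 ± 0.04 in vehicle mice (SD, n = 4). The difference was 0.02 ± 0.06 (log2, SE; limma adjusted p = 0.924), with a 95% interval from -7.08% to 11.2%. Of all 306 miRNAs, 0 passed the threshold on day 1 by limma (0% called), 2 had an unadjusted p under 0.05 (0.654%), and 0 had groups that did not overlap (0%).

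On day 3 the members were again close in the 2 groups. miR-26a had values of 11.81, 11.93, 11.98 and 12.07 in Printex 90 mice, against a lowest value of 11.84, a median of 11.92 and a highest value of 12.16 in the 6 vehicle mice. Printex 90 mice held the lowest of these 10 values and a vehicle mouse the highest. The means were 11.95 ± 0.11 in Printex 90 mice (SD, n = 4) and 11.95 ± 0.12 in vehicle mice (SD, n = 6), and the difference of 0.00 ± 0.07 (log2, SE) did not pass limma's test (adjusted p = 0.999). Its 95% interval ran from -9.66% to 10.9%.

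For miR-26b on day 3 the values were 11.20, 11.31, 11.36 and 11.42 in Printex 90 mice, against a lowest value of 11.17, a median of 11.28 and a highest value of 11.38 in vehicle mice. The groups overlapped, although 3 of 4 Printex 90 mice were above the vehicle mean. Printex 90 mice averaged 11.32 ± 0.09 (SD, n = 4) and vehicle mice 11.27 ± 0.08 (SD, n = 6). The difference of 0.05 ± 0.06 (log2, SE) gave an adjusted p of 0.999 by limma, with a 95% interval from -5.27% to 13.3%. By limma 0 of 306 miRNAs passed on day 3 (0% called), 1 had an unadjusted p under 0.05, and the groups of 0 did not overlap (0%).

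Replicate 3 of the Printex 90 mice of day 3 was measured only in the authors' deposited table of log2 intensity. There miR-26b stood at 10.81 in this mouse, the lowest of all 30 samples in that table, against 11.19 to 11.50 in the other 4 Printex 90 mice of the day. Its miR-26a value in the same table was 11.96, inside the range of the other 4 Printex 90 mice, 11.96 to 12.03. With this mouse the miR-26b difference of day 3 in the authors' values was -0.13 (log2), and without it -0.03, so the sign in those values was opposite to that in the scaled signals under either set of mice.

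By day 28 both members were lower in the mean of Printex 90 mice, by less than the test could separate from the spread. miR-26a had values of 11.79, 11.93, 11.93, 11.95 and 12.00 in Printex 90 mice, against 11.91, 11.96, 12.04 and 12.13 in vehicle mice. All 5 Printex 90 mice were below the vehicle mean, and the groups still overlapped. The means were 11.92 ± 0.08 in Printex 90 mice (SD, n = 5) and 12.01 ± 0.09 in vehicle mice (SD, n = 4). The difference was -0.09 ± 0.07 (log2, SE; limma adjusted p = 0.906), with a 95% interval from -15.5% to 4.56%. Without vehicle replicate 4 it was -0.05, and without Printex 90 replicate 2 it was -0.06.

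miR-26b on day 28 had values of 11.15, 11.27, 11.28, 11.33 and 11.37 in Printex 90 mice, against 11.27, 11.29, 11.37 and 11.54 in vehicle mice. Of the Printex 90 mice, 4 of 5 were below the vehicle mean, and the highest vehicle value stood above all others. The means were 11.28 ± 0.08 in Printex 90 mice (SD, n = 5) and 11.37 ± 0.12 in vehicle mice (SD, n = 4). The difference was -0.09 ± 0.07 (log2, SE; limma adjusted p = 0.906), with a 95% interval from -14.1% to 3.47%. Without vehicle replicate 4, the highest of these mice, it was -0.03, and without Printex 90 replicate 2 it was -0.05. On day 28, 0 of 306 miRNAs passed limma's test (0% called), 1 had an unadjusted p under 0.05, and the groups of 1 did not overlap (0.327%), which was neither member.

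**Figure D2:**
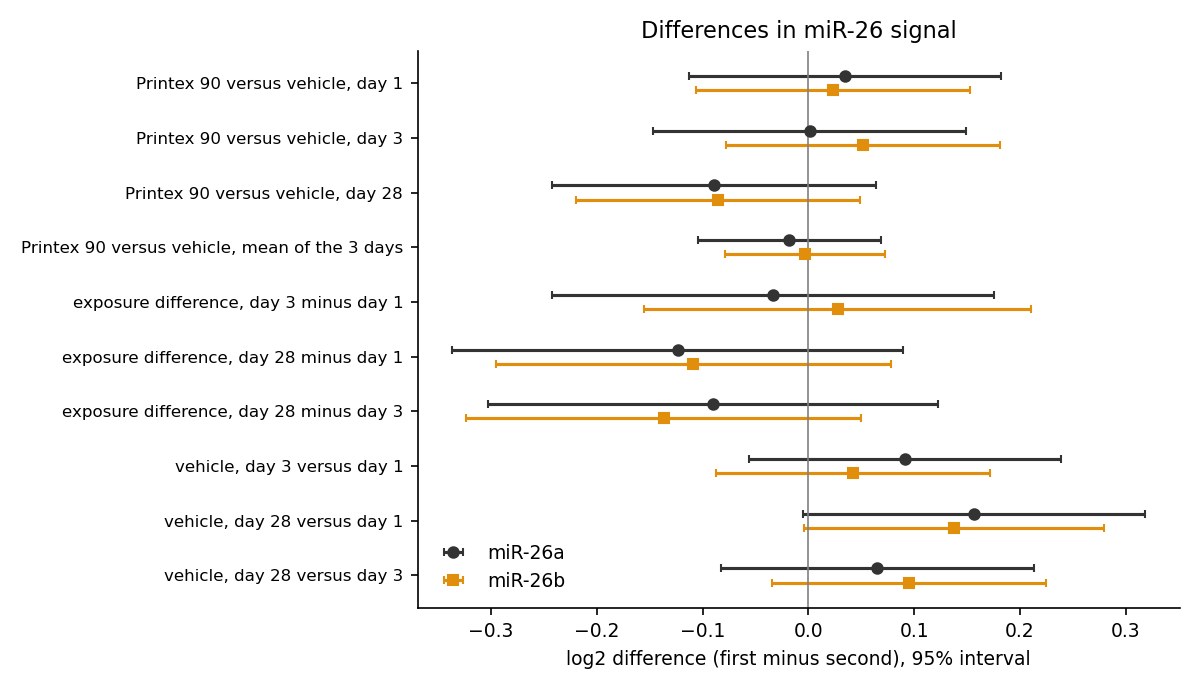
Log2 differences in miR-26a (circles) and miR-26b (squares) signal for each comparison, first-named minus second-named, with 95% intervals from the limma model over 29 hearts. All intervals include 0, and those that come nearest to excluding it are the vehicle mice of day 28 against day 1.

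Averaged over the 3 days, Printex 90 mice differed from vehicle mice by -0.02 ± 0.04 for miR-26a and by -0.003 ± 0.04 for miR-26b (log2, SE; limma adjusted p = 0.994 for each). The 95% interval of this mean difference ran from -6.97% to 4.87% for miR-26a and from -5.34% to 5.14% for miR-26b. Of the 306 miRNAs, 0 passed limma's test in this comparison (0% called) and 0 had an unadjusted p under 0.05.

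The change of the exposure difference with time was tested as an interaction. For miR-26a the exposure difference of day 28 minus that of day 1 was -0.12 ± 0.10, and for miR-26b it was -0.11 ± 0.09 (log2, SE; limma adjusted p = 0.665 for each). Day 28 minus day 3 gave -0.09 ± 0.10 for miR-26a and -0.14 ± 0.09 for miR-26b (limma adjusted p = 0.982 for each). Day 3 minus day 1 gave -0.03 ± 0.10 and 0.03 ± 0.09 (limma adjusted p = 0.943 for each). The exposure difference was thus not shown to vary between days for either member. In these interactions 0 of 306 miRNAs passed limma's test (0% called in each), and 2 (0.654%, day 3 minus day 1), 3 (0.98%, day 28 minus day 1) and 1 (0.327%, day 28 minus day 3) had an unadjusted p under 0.05.

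The width of the intervals was set beside that of the other miRNAs. On day 1, the 95% intervals of 74 of the 306 miRNAs (24.2%) lay within 1.2-fold in either direction, and both members were among them. On day 3 there were 85 such miRNAs and on day 28 there were 73, both members included each time. For the mean of the 3 days there were 158 (51.6%), again with both members. The interactions were measured less closely: for day 28 minus day 1 and for day 28 minus day 3 neither member's interval lay within 1.2-fold. Day 28 minus day 1 ran from -20.8% to 6.39% for miR-26a and from -18.5% to 5.55% for miR-26b, and day 28 minus day 3 from -19.0% to 8.88% and from -20.1% to 3.54%. The limit of 1.2-fold was chosen after the values were seen, so these counts are a description. They were made under the scaling used here alone. With the 75th percentile taken over all probes, the day 28 difference itself was -0.26 (log2) for each member.

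The arrays lay on 4 slides, and the exposure difference was recomputed within each slide that held both groups. For day 1 it ran over 4 slides from -0.03 to 0.09 for miR-26a and from -0.04 to 0.05 for miR-26b. For day 3 it ran over 3 slides from -0.11 to 0.15 for miR-26a and from -0.0002 to 0.14 for miR-26b. For day 28 it ran over 3 slides from -0.20 to 0.09 for miR-26a and from -0.17 to 0.05 for miR-26b. Within slides the sign was therefore not uniform on any day, though for miR-26b on day 3 the only negative value was -0.0002. On day 28 the slide with a positive difference was slide 1 for both members. Each slide held only 1 or 2 mice of a group. On day 28 slides 1 and 4 set 1 mouse against 1, so these values are differences between single mice as much as between groups. Slide 2 held no Printex 90 array of day 3 and slide 3 no vehicle array of day 28.

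How the arrays were brought to 1 scale moved the members by as much as the differences themselves. With the 75th percentile taken over all probes, most of which were dim, the day 1 difference was 0.21 for miR-26a and 0.20 for miR-26b (log2), and the day 28 difference was -0.26 for each. The median difference of all tested miRNAs moved the same way, to 0.11 on day 1 and -0.16 on day 28, against -0.07 and 0.01 under the scaling used here. Such a change of percentile adds 1 constant to each array, so the members and that median move alike by construction. Quantile normalization, which does not, gave 0.019 for miR-26a and 0.0061 for miR-26b on day 1 beside a median of 0.015. On day 28 it gave -0.029 for miR-26a and -0.043 for miR-26b beside a median of -0.037, so there the members lay at the level of the typical miRNA. Without any scaling the day 1 difference was -0.16 for miR-26a and -0.17 for miR-26b, and the median of all miRNAs was -0.24. The direction on day 1 therefore flips without scaling, while on day 28 both members were lower in the mean of Printex 90 mice under all 7 ways of scaling, by sizes from -0.029 to -0.26, with no call under any.

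**Figure D3:**
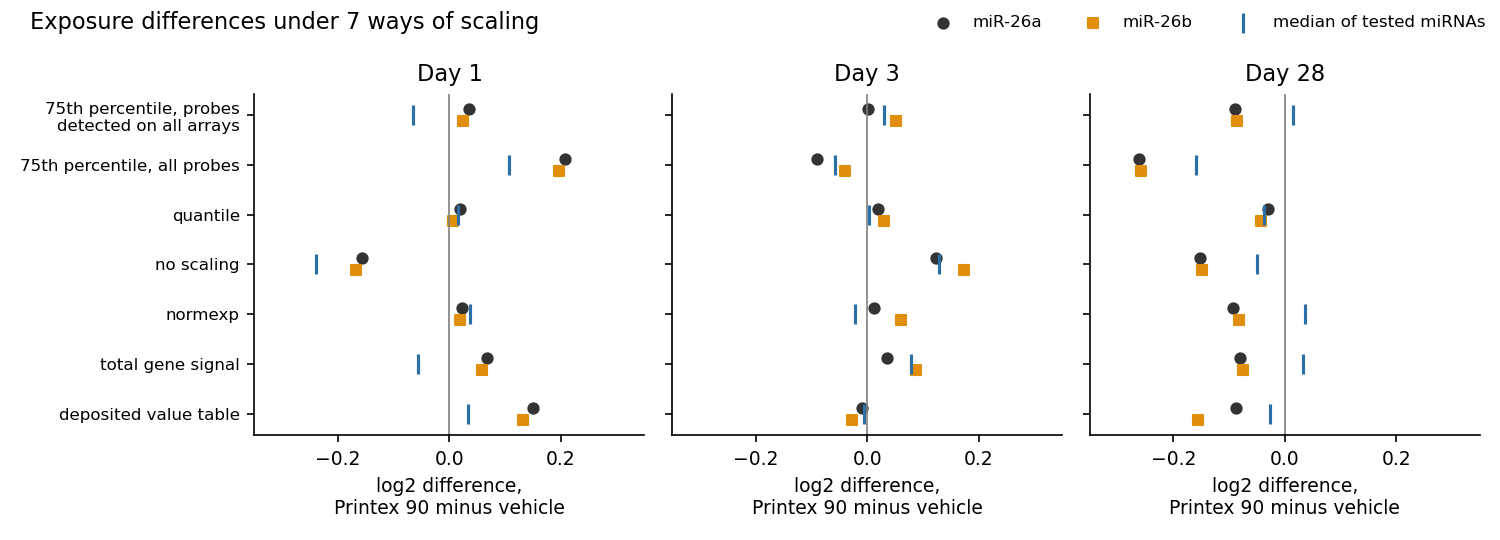
Differences of Printex 90 minus vehicle on each day (log2) for miR-26a (circles), miR-26b (squares) and the median of the tested miRNAs (lines) under 7 ways of scaling, including the authors' deposited value table. With all probes in the percentile and without scaling, both members and the median of all miRNAs shift together on day 1, since those scalings add a constant per array, and on day 28 both members lie left of 0 under each of the 7.

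The vehicle mice allowed the days to be compared without particles. All of them had been instilled with fluid, so age and time since instillation cannot be told apart between these days. The vehicle mice of day 28 were also the reference for the exposure difference of that day, so these comparisons are not independent of it. On day 28 miR-26a had 11.91, 11.96, 12.04 and 12.13 in vehicle mice, against 11.78, 11.81, 11.89 and 11.93 on day 1. All 4 mice of day 28 were above the day 1 mean, and the ranges overlapped by 1 value on either side. The difference was 0.16 ± 0.08 (log2, SE), with an unadjusted p of 0.0571 and an adjusted p of 0.755 by limma. After quantile normalization the miR-26a difference was -0.011. Over 14 alternatives it ran from -0.016, without scaling, to 0.33.

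For miR-26b the vehicle values were 11.27, 11.29, 11.37 and 11.54 on day 28, against 11.17, 11.24, 11.25 and 11.26 on day 1. In the scaled signals every day 28 value was above every day 1 value. The lowest of day 28 and the highest of day 1 were only 0.01 apart. Groups that did not overlap were found for 16 of 306 miRNAs in this comparison (5.23%), so such a separation was not rare. The difference was 0.14 ± 0.07 (log2, SE), with an unadjusted p of 0.0567 and an adjusted p of 0.755 by limma. The two-sided exact permutation test on this miRNA alone gave p = 0.0286, the smallest it can give for 4 against 4 mice, unadjusted. That p is for the scaled signals. Without vehicle replicate 4 of day 28, on slide 4, the difference was 0.08. In the authors' values the groups overlapped, with 11.21 to 11.51 on day 28 and 11.08 to 11.34 on day 1, although the difference was 0.19. After quantile normalization the miR-26b difference was 0.033. Over 14 alternatives it ran from -0.035, without scaling, to 0.32.

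Within slides, the vehicle difference of day 28 against day 1 ran from -0.02 to 0.35 for miR-26a and from 0.05 to 0.28 for miR-26b over the 3 slides that held both. It was largest on slide 4, where it set 1 mouse of day 28 (replicate 4, the highest vehicle value of that day) against 1 mouse of day 1. On slide 1 it was also 1 mouse against 1. With slide as a fixed block the difference was 0.18 for miR-26a and 0.15 for miR-26b, and with slide as a random block it was 0.17 and 0.15, with no call for either member (limma adjusted p between 0.428 and 0.594). In the fit without slide, 6 of 306 miRNAs passed limma's test between day 28 and day 1 in vehicle mice (1.96% called), and neither member was among them. Day 28 against day 3 gave 0.07 ± 0.07 for miR-26a and 0.10 ± 0.06 for miR-26b (log2, SE; limma adjusted p = 0.892 for each), where 2 miRNAs passed (0.654% called), 22 had an unadjusted p under 0.05 (7.19%) and the groups of 9 did not overlap (2.94%), neither member among them. Day 3 against day 1 gave 0.09 ± 0.07 for miR-26a (limma adjusted p = 0.517) and 0.04 ± 0.06 for miR-26b (limma adjusted p = 0.840), where 0 passed (0% called), 18 had an unadjusted p under 0.05 (5.88%) and the groups of 3 did not overlap (0.98%), again without a member.

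For some of the comparisons above, other widely expressed guide strands were set beside the family as counts. On day 28 all 5 miR-30 guides and all 3 miR-101 guides were lower in the mean of Printex 90 mice, with median differences of -0.09 and -0.12 (log2), as were 5 of 9 let-7 guides with a median of -0.0004. Of all 306 miRNAs, 138 were lower in that comparison and 168 higher, with a median of 0.01, and 0 of the named guides passed limma's test. The 5 heart muscle markers were also all lower in the mean, with a median difference of -0.08, and 3 of 4 red cell markers were higher, with a median of 0.38. Both members were higher in the mean on days 1 and 3. On day 1, 4 of 5 heart muscle markers were lower (median -0.10) and 4 of 4 red cell markers higher (median 0.44). On day 3, 3 of 5 heart muscle markers were higher (median 0.0033) and 3 of 4 red cell markers lower (median -0.16). Of all 306 miRNAs, 198 were lower on day 1 and 195 higher on day 3. None of these markers passed the test (0 of 9), and their part in the miR-26 values was not tested. Between vehicle mice of day 28 and day 1, the same miR-30, miR-101 and heart muscle guides were all higher in the mean, with medians of 0.16, 0.21 and 0.11. Of the let-7 guides 7 of 9 were higher, with a median of 0.06, and again 0 of these guides passed. Of all 306 miRNAs, 131 were higher there and 175 lower, with a median of -0.05. That comparison and the exposure difference of day 28 share the vehicle mice of day 28, with opposite sign. A guide that is high in those mice tends by arithmetic to be lower in the exposure difference and higher between the vehicle days. The opposite directions are therefore not independent observations. For the mean of the 3 days 9 of 9 let-7 guides were higher in Printex 90 mice (median 0.04), as were 153 of all 306 miRNAs. Both members were close to 0 there, at -0.02 ± 0.04 for miR-26a and -0.003 ± 0.04 for miR-26b (log2, SE). Each of them changed sign under some alternatives.

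In the scaled signals, the members were among the least variable miRNAs between mice of 1 group. The residual SD was 0.10 for miR-26a and 0.08 for miR-26b on the log2 scale, equal to 7.12% and 5.85% of the signal. Those were the 18th and the 4th smallest of 306, where the median was 0.27. The ranks were not recomputed under other scalings. In the authors' values of 30 samples the range was wider, 1.70-fold for miR-26a and 1.79-fold for miR-26b. Group SDs there ran from 0.03 to 0.28 for miR-26a and from 0.03 to 0.26 for miR-26b (log2). Brightness moves with this measure, since dim probes varied more. Of comparable guides, the 9 let-7 strands had residual SDs of 0.13 to 0.22, the 5 miR-30 strands 0.10 to 0.35 and the 3 miR-101 strands 0.06 to 0.10. Small spread was thus shared with miR-101, and no test of these ranks was made.

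**Figure D4:**
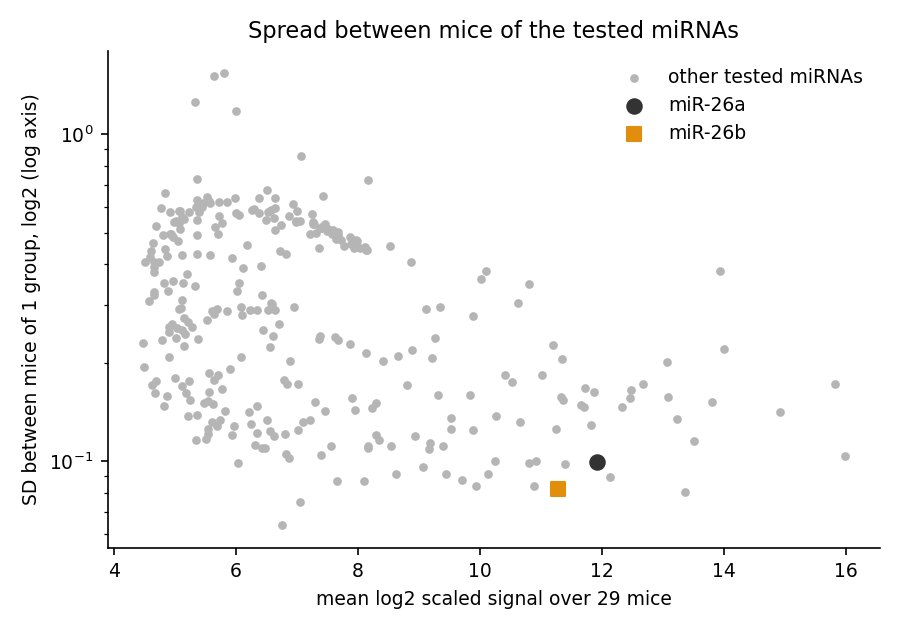
SD between mice of 1 group (log2, log axis) against mean log2 scaled signal for the 306 tested miRNAs, with miR-26a as a black circle and miR-26b as an orange square. Both members lie at the lower edge of the cloud, at 0.10 and 0.08, in its bright part.

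The probes behind each value gave the same picture. Spots of 1 probe on 1 array differed by a median coefficient of variation of 2.67% to 3.57% over the 4 probes, below the spread between mice. The 2 probes of miR-26a followed each other over the 29 arrays with Pearson r = 0.894, and those of miR-26b with r = 0.969. For every exposure difference and vehicle difference the 2 probes of a member had the same sign, except for miR-26a on day 3, where they gave 0.01 and -0.01 (log2).

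The members rose and fell together from mouse to mouse. Over the 29 arrays, miR-26a and miR-26b had a Pearson r of 0.797 (permutation p = 1e-05, the smallest that 1e+05 resamples can give; 5e-05 adjusted over 5 relations) and a Spearman rho of 0.793 (permutation p = 2e-05; 0.0001 adjusted). Without the 2 arrays farthest from the median of miR-26a, r was 0.75. With group means removed it was 0.759. Within slides 1, 2, 3 and 4, which held 8, 7, 6 and 8 arrays, r was 0.944, 0.923, 0.974 and 0.765, so the relation held within every slide. Scaling moved its size: r was 0.480 after quantile normalization and 0.984 without scaling. The 2 guides share 19 of 21 bases and were read on the same arrays, and whether a probe of either binds the other was not tested. The other 4 relations set each member against the share of spots well above background and against the 75th percentile before scaling, and gave r between 0.10 and 0.17 (permutation, adjusted p of at least 0.581). Within slides those 4 relations ran from -0.29 to 0.78.

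**Figure D5:**
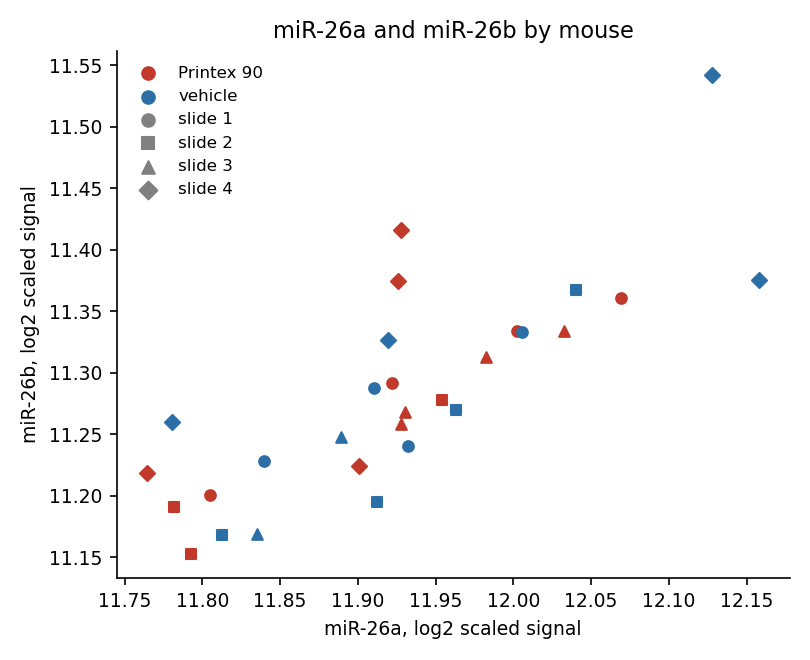
miR-26b against miR-26a in each of 29 hearts (log2 scaled signal on both axes), with Printex 90 in red, vehicle in blue and the slide as the symbol. The points rise together with r = 0.797, Printex 90 and vehicle mice are mixed along the line, and several mice on slide 4 lie above it.

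The other miRNAs whose values most resembled the members were found by Pearson r over the same 29 arrays, as a description. For miR-26a the closest were miR-26b (0.797), miR-100 (0.788), miR-125b-5p (0.775), miR-101a (0.704) and miR-152 (0.638). For miR-26b they were let-7f (0.855), let-7d (0.832), let-7a (0.813), miR-101a (0.804) and let-7g (0.798), and miR-26a came 6th. The median r with the other 305 miRNAs was 0.07 for each member, and 95% of those lay under 0.56 for miR-26a and under 0.66 for miR-26b. Over all pairs of tested miRNAs the median was 0.06 and the 95th percentile 0.90, above every r named here. Each r named here was above the 95th percentile of that member's own values, from which it was taken as one of the highest.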

How the data were processed

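Per the file headers, the authors quantified the scans with Feature Extraction 10.7.3.1, and the deposited scanner files give background-subtracted signal intensity on a linear scale with flags for each spot. The authors also deposited a value table of the whole series, in log2 intensity by miRNA. Its ranks followed the median pixel signals (Spearman 0.983 to 0.997), its column medians were 5.78 to 5.82, and how its columns were scaled is not given in the sources used here. It served as an alternative. The file of Printex 90 day 3 replicate 3 held no signal, so 29 arrays were fitted instead of the 30 planned.

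Processed intensity was averaged over a probe's spots, without control and outlying spots. A probe was called detected if the flag for signal well above background was set in a share of 0.5 or more of its spots. The 75th percentile of 418 probes that every array detected was set equal across arrays, and signals were raised to a floor of 16.5 (4.04 on the log2 scale) and taken to log2. Probes detected on 4 or more arrays in any group were averaged by miRNA, giving 306 mouse miRNAs from 621 probes. The share of spots well above background was 18.4% to 27.5% per array, 0 spots were saturated, and unscaled 75th percentiles spanned 2.34-fold. The number of arrays limits the precision.

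The 6 groups were fitted in limma 3.58.1 under R 4.3.3 with 10 two-sided contrasts, adjusted over the 306 miRNAs (Benjamini and Hochberg, threshold 0.05). Exact permutation tests used scipy 1.17.1, and correlations with their permutation p-values used numpy 2.4.6. The limma script was tested on simulated data. Alternatives changed the scaling, background correction (normexp, offset 50, on median pixel signals, since mean signals were not among the columns used), filter, probe summary, slide as a block and the arrays included. The slide as a random block had a consensus correlation of 0.14.

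The members, the miRNAs named beside them and the lists were chosen with earlier results of these data known. By rule, the text names the members, the other strands of their hairpins, and the 5 miRNAs most correlated with each member. Guides of let-7, miR-30 and miR-101 enter as counts. Some markers of cell types, and miR-34b-3p beside them, are named outside this rule. Sequences and positions are from RefSeq tables of GRCm38.p6, in which all 5 strand names matched.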

Additional observations from a re-analysis of the deposited data

How the results depend on the processing

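Neither member passed limma's threshold in any comparison under any alternative or with any array left out. Of 270 alternative values of the members, 235 kept direction and side of the threshold and 34 changed sign; the exact permutation p of 0.0286 for miR-26b (0.14) between vehicle days 28 and 1 was the 1 value to pass.

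For miR-26a, the value that changed sign on day 1 was -0.16, without scaling. On day 3 they were -0.090 (75th percentile over all probes), -0.0079 (brightest probe), -0.0095 and -0.017 (deposited table, 29 and 30 samples), and -0.0091 and -0.0037 (slide as a fixed and random block). For the mean of the days they were 0.0032 (quantile), 0.0075 (total signal), and 0.018 and 0.015 (deposited table, 29 and 30 samples). The interactions gave 0.0012 (quantile) and 0.28 (no scaling) for day 3 minus day 1, and 0.0045 (no scaling) for day 28 minus day 1. Vehicle mice gave -0.14 for day 3 against 1 (no scaling), -0.011 and -0.016 for day 28 against 1 (quantile, no scaling), and -0.064, -0.019, -0.093 and -0.093 for day 28 against 3 (all probes, quantile, deposited table with 29 and 30 samples).

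For miR-26b they were -0.17 on day 1 (no scaling), -0.039, -0.026 and -0.13 on day 3 (all probes, deposited table with 29 and 30 samples), and 0.023 and 0.0017 for the mean of the days (total signal, brightest probe). The interactions gave -0.24, -0.16 and -0.26 for day 3 minus day 1 (all probes, deposited table with 29 and 30 samples) and 0.019 for day 28 minus day 1 (no scaling). Vehicle mice gave -0.19 for day 3 against 1 and -0.035 for day 28 against 1 (no scaling), and -0.034 for day 28 against 3 (all probes). The cause of these changes was not tested.

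Leaving out 1 array at a time changed the sign of 16 of 580 values. miR-26a ran from -0.040 to 0.048 on day 3 and from -0.074 to 0.014 for the interaction of day 3 minus day 1; miR-26b ran from -0.014 to 0.016 for the mean of the days and from -0.0034 to 0.068 for that interaction. With no change of sign, miR-26a ran from 0.0055 to 0.061 on day 1 and from -0.12 to -0.050 on day 28, and miR-26b from 0.0032 to 0.036 on day 1, from 0.020 to 0.092 on day 3 and from -0.12 to -0.027 on day 28. The correlation of miR-26a with miR-26b ran from 0.764 to 0.833 with arrays left out and from 0.480 to 0.984 under other settings.

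The count of miRNAs past the threshold stayed 0 for every exposure contrast and interaction, and for vehicle day 3 against 1. For vehicle day 28 against 1, with 6 called, it was 1 (all probes), 3 (quantile), 0 (no scaling), 3 (normexp) and 2 and 2 (deposited table). It ran from 0 to 7 over the 11 alternatives and from 3 to 8 with arrays left out. For day 28 against 3, with 2 called, it was 1 (all probes), 1 (quantile), 0 (no scaling), 0 (normexp), 4 (total signal), 1 and 1 (deposited table), 5 (no filter), and 4 and 4 (slide as fixed and random block), and 1 to 5 with arrays left out. Without the filter, 427 of 1079 mouse miRNAs that varied over the arrays were tested. No paired analysis was possible because the labels give no replicate numbers that groups share.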
